A study of Mus musculus with 4 samples.

Results

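Group 1 innate lymphoid cells (ILC1) of the mouse liver were picked out of 4 single-cell RNA-seq libraries by their raw counts of unique molecular identifiers (UMIs, 1 per captured RNA molecule). A cell entered with at least 500 UMIs, at least 300 genes, at most 15% mitochondrial UMIs, at least 1 UMI of Ncr1 or Klrb1c (the receptors NKp46 and NK1.1), and at least 2 UMIs summed over Cxcr6, Cd200r2, Gzmc and Tnfsf10. It could hold no UMI of Klra8, Klra4 or Eomes, which mark conventional natural killer (NK) cells, at most 1 UMI of Cd3d, Cd3e and Cd3g together, no Cd79a or Stab2, and fewer than 5 UMIs of the C1q genes. The rule found 938 ILC1 cells among 82905 cells that met the limits on depth and mitochondrial content. There were 163 in the 12-week MASH library, 74 in the 12-week chow library, 535 in the 24-week MASH library and 166 in the 24-week chow library. Members were selected on their counts of the 17 genes it used, and every difference in those genes is a description, as is every difference between ILC1 cells and another class.

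ILC1 are innate lymphocytes without a rearranged antigen receptor that share NKp46, NK1.1 and the transcription factor T-bet with NK cells. They live in the tissue rather than circulating, and in the mouse liver they line the sinusoids, held by the integrin CD49a and by CXCR6, whose ligand CXCL16 is made by the sinusoids' cells. They answer interleukin-12, interleukin-15 and interleukin-18 with interferon gamma and TNF, carry the death ligand TRAIL (Tnfsf10) and store granzymes.

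The mice were male C57BL/6J animals, 8 weeks old at the start. The MASH (metabolic dysfunction-associated steatohepatitis) groups received a Western diet (fat 21.1%, cholesterol 1.25% and sucrose 41%), drinking water with 23.1 g/L fructose and 18.9 g/L glucose, and carbon tetrachloride at a low dose each week, for 12 or 24 weeks. The chow groups received normal chow for the same times. Livers were held overnight on ice, digested and enriched on a 25% and 70% Percoll gradient, so a share below is a share of that suspension, not of the liver. Each group was 1 library, and the labels do not say how many animals it held or what the 3 to 8 hashtag antibodies used in it marked.

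Summed UMIs of the ILC1 cells were 750235 in MASH and 229127 in chow at 12 weeks, and 2810864 in MASH and 562047 in chow at 24 weeks. The MASH members were deeper, with medians of 4043 UMIs in MASH and 2767.5 in chow at 12 weeks, and of 4456 in MASH and 2975.5 in chow at 24 weeks. All kept cells showed the same order, with medians of 3304 in MASH and 2096 in chow at 12 weeks, and of 3464 in MASH and 2356 in chow at 24 weeks. Libraries shared 2.67% to 4.02% of the barcodes of the shorter list, or 507 to 796 barcodes where a random draw from the kit's barcodes gives 501 to 783. None was shared between ILC1 cells of the 3 libraries whose columns carry barcodes. With 1 library a group there is no replicate, no test and no p-value. Bracketed ranges are 95% intervals that cover counting error only, and no difference below can be set against the spread between animals.

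The label was checked on genes that the rule did not read. Transcript levels are given as CPM, the UMIs of a gene per 1e+06 UMIs of the class in that library. Xcl1, a chemokine that draws cross-presenting dendritic cells and the 1 marker of the label outside the rule, stood at 2775 CPM in 12-week MASH, 3365 CPM in 12-week chow, 2531 CPM in 24-week MASH and 2493 CPM in 24-week chow. Conventional NK cells, taken with the opposite rule (at least 2 UMIs of Klra8, Klra4 and Eomes and none of the ILC1 genes, 1479 cells), held 403 to 738 CPM of Xcl1. Itga1, the CD49a chain, lay at 152 to 214 CPM in ILC1 cells and at 9.31 to 12.6 CPM in NK cells. Il7r, the interleukin-7 receptor chain, lay at 183 to 323 CPM in ILC1 cells against 12.1 to 41.7 CPM in NK cells. Across all 4 libraries ILC1 cells stood above NK cells in each of these 3 genes without overlap.

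Of the 2460 genes compared between the 2 classes, 39 (1.59%) stood 2-fold or more above NK cells in all 4 libraries, and 40 (1.63%) stood 2-fold or more below them, which the choice of cells also shaped. The ILC1 marker list had 13 of its 22 genes compared, and 11 of them were among the higher genes; the NK marker list had 12 of its 19 compared, and all 12 were among the lower. The widest gap above NK cells was in Tcrg-C4, a constant segment of the T cell receptor gamma locus (GRCm38, chromosome 13, 19344558 to 19352756). Its level was 208 to 224 CPM in ILC1 cells, 1.73 to 3.79 CPM in NK cells and 37.9 to 73.7 CPM in Cxcr6-positive T cells (7513 cells with at least 3 Cd3 UMIs). Trdc, the delta constant segment, stood at 3.91 to 26.2 CPM in ILC1 cells, 38.9 to 49.7 CPM in NK cells and 29.1 to 44.8 CPM in the T cells. Cd7, an immunoglobulin-family surface protein, lay at 2509 to 3941 CPM in ILC1 cells against 368 to 581 CPM in NK cells. The chemokine receptor gene Cxcr3 lay at 116 to 227 CPM against 18.9 to 35.2 CPM in NK cells, and Cish, a feedback inhibitor of cytokine signalling, at 94.99 to 113 CPM against 11.5 to 18.6 CPM in NK cells. Tmem176a, Tmem176b, S100a4, the phosphatase gene Inpp4b, the activating receptor gene Cd226 and the unannotated Gm36723 completed the 12 widest gaps above NK cells.

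Among the genes farthest below NK cells were several known from NK maturation. Cma1, a chymase gene, had 0 to 3.56 CPM in ILC1 cells and 292 to 343 CPM in NK cells. Klrg1, a late maturation receptor, lay at 3.999 to 12.5 CPM against 126 to 195 CPM in NK cells, and Prf1, the pore-forming perforin, at 68.7 to 153 CPM against 573 to 861 CPM. Klra7, Klra3, Itgam, Sh2d1a, Klf2, Zeb2, Lpin1 and Borcs7 were also among the 12. Klra7 and Klra3 belong to the Ly49 cluster of near-identical genes, among which reads may be split, so their single levels are uncertain.

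**Figure D1:**
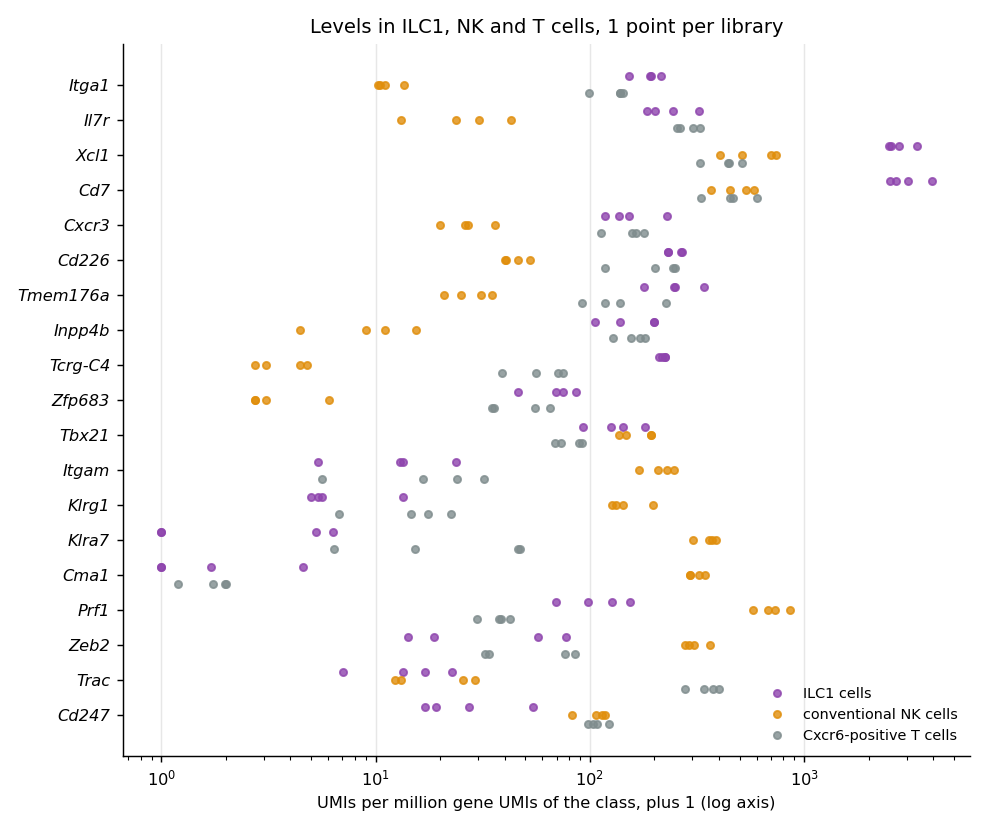
CPM plus 1 on a log axis of genes in ILC1 cells, conventional NK cells and Cxcr6-positive T cells, with 1 point for each library. Xcl1, Itga1 and Il7r lie higher in ILC1 cells than in NK cells in all 4 libraries, and Klrg1 and Prf1 lie lower.

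Residual T cell transcripts were measured in the same cells. Trac, the alpha constant segment, lay at 6.05 to 21.8 CPM in ILC1 cells and at 276 to 398 CPM in the T cells. Trbc1 and Trbc2 are beta constant segments whose reads can be shared. Trbc1 had 188 to 363 CPM in ILC1 cells, 100.4 to 170.4 CPM in NK cells, 174 to 293 CPM in the T cells and 8.28 to 12 CPM in B cells (22271 cells with at least 2 Cd79a UMIs). Of the 17 T cell markers, summed over the list, ILC1 cells held 869 CPM in MASH and 890.3 CPM in chow at 12 weeks, and 639.7 CPM in MASH and 1043 CPM in chow at 24 weeks. The T cells held 4933 to 5519 CPM of that list. Of its genes 5 were compared between MASH and chow at 12 weeks and 4 at 24 weeks, and none met the limit used below. The 14 markers of group 2 and group 3 innate lymphocytes summed in ILC1 cells to 621 CPM in MASH and 720.1 CPM in chow at 12 weeks, and 799.8 CPM in MASH and 838 CPM in chow at 24 weeks. In NK cells they summed to 494 CPM in MASH and 660.1 CPM in chow at 12 weeks, and 636 CPM in MASH and 639 CPM in chow at 24 weeks, below ILC1 cells in all 4 libraries, and in the T cells to 132 to 193 CPM. Most of the ILC1 sum was Ncr1, the NKp46 receptor that ILC1 and NK cells also carry, at 453 to 678 CPM, with Gata3, a factor that T cells also use, at 75.98 to 105 CPM. Markers that define these lineages more closely were at or near 0, with Il1rl1 at 0 to 1.78 CPM, Il17rb at 0 to 0.712 CPM, and Il17a at 0 in all 4 libraries. Kit, also expressed by other innate lymphocytes, stood at 26.2 to 151 CPM and is described below.

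The marker sum of 2 is a limit without a gap in the data. Cells that met the rest of the rule with a sum of 1 numbered 116 in MASH and 71 in chow at 12 weeks, and 132 in MASH and 103 in chow at 24 weeks. Those with a sum of exactly 2 numbered 60 in MASH and 40 in chow at 12 weeks, and 110 in MASH and 66 in chow at 24 weeks. Xcl1 lay at 944 to 1076 CPM in cells with a sum of 0, at 2140.5 to 2473 CPM with a sum of 1 and at 1749 to 3251 CPM with a sum of 2. Cells just outside the limit thus had Xcl1 levels that overlapped those of the members just inside it. Klra7 was at 30.1 to 83.3 CPM with a sum of 0. With a sum of 1 it was at 52.1 CPM in 12-week MASH, 1.83 CPM in 24-week MASH and 0 in both chow libraries. It was at 0 in every library with a sum of 2. With a sum of 3 it was at 9.30 CPM in 12-week MASH and 0 in the others. Cells that met the ILC1 marker sum but also carried NK genes were few, at 17 in MASH and 5 in chow at 12 weeks, and 15 in MASH and 10 in chow at 24 weeks.

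ILC1 cells took a larger share of the suspension in MASH than in chow, and the ratio was larger at 24 weeks, a difference between weeks that was not tested. At 12 weeks they were 0.946% (0.807% to 1.10%) of kept cells in MASH and 0.401% (0.315% to 0.504%) in chow, a ratio of 2.36 (1.78 to 3.15). At 24 weeks they were 2.68% (2.46% to 2.91%) in MASH and 0.608% (0.519% to 0.708%) in chow, a ratio of 4.41 (3.70 to 5.28). Conventional NK cells were 2.84% in MASH and 2.12% in chow at 12 weeks, and 0.822% in MASH and 1.59% in chow at 24 weeks. ILC1 cells were therefore 25.0% of ILC1 and NK cells together in MASH and 15.9% in chow at 12 weeks, and 76.5% in MASH and 27.6% in chow at 24 weeks. The 24-week MASH library was the only one of the 4 in which ILC1 cells outnumbered NK cells, as the classes are defined here. Their limits are unlike and leave cells in neither class. At 24 weeks, cells without a UMI of the NK genes or the ILC1 marker sum numbered 196 in MASH and 279 in chow. Those with a marker sum of 1 numbered 132 in MASH and 103 in chow.

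**Figure D2:**
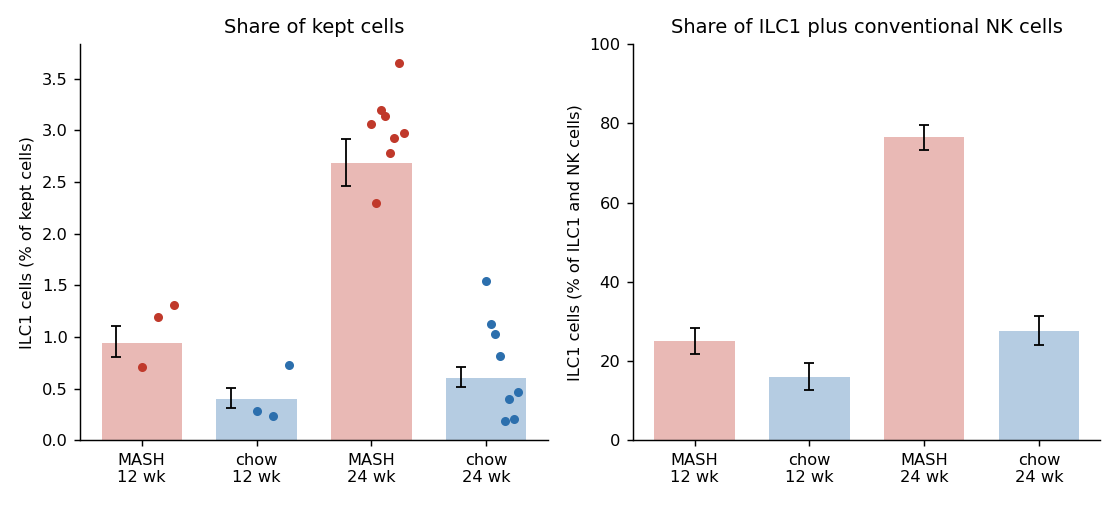
Left, ILC1 cells as percent of kept cells in each library, MASH left of chow at each week, as bars with exact 95% binomial intervals and 1 point for each hashtag. Right, ILC1 cells as percent of ILC1 and NK cells, which reach 76.5% in 24-week MASH and 27.6% in 24-week chow.

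A deeper cell passes a minimum of marker UMIs more easily, and the 12-week share changed with depth. When every cell was thinned to 1000 UMIs before the rule was applied, 33 MASH and 29 chow cells remained at 12 weeks, and the ratio of shares was 1.13 (0.666 to 1.93). The same thinning left 172 MASH and 79 chow cells at 24 weeks, with a ratio of 2.82 (2.15 to 3.73). The 12-week ratio also lost its distance from 1 among cells without any Cd3, Trac or Trbc UMI, at 1.39 (0.747 to 2.63) from 26 MASH and 20 chow cells, where the 24-week ratio was 4.43 (2.90 to 6.98). With Cd3 and Trac UMIs barred but Trbc allowed, the 12-week ratio was 2.53 (1.83 to 3.53) from 130 MASH and 55 chow cells. That setting was chosen after seeing the data. Hashtags overlapped at 12 weeks, at 0.713% to 1.31% over 3 hashtags in MASH and 0.236% to 0.726% over 3 hashtags in chow. They did not at 24 weeks, at 2.30% to 3.65% over 8 hashtags in MASH and 0.187% to 1.54% over 8 in chow. Within 24-week chow, hashtags 1 to 4 held 0.819% to 1.54% and hashtags 5 to 8 held 0.187% to 0.464%, so the ratio was 2.36 against the one set and 8.58 against the other.

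MASH and chow ILC1 cells were then compared gene by gene. A gene was compared when it averaged at least 50 CPM over the 2 libraries and had at least 20 UMIs in them, and was called when its CPM ratio was at least 2 or at most 0.5 with an interval that excluded 1. At 12 weeks, 67 of 3208 genes (2.09%) were higher and 97 (3.02%) lower in MASH than in chow. At 24 weeks, 51 of 3114 (1.64%) were higher and 35 (1.12%) lower. At both weeks, 16 of 2838 (0.564%) were higher and 13 (0.458%) lower. Scaling by the median of gene ratios turned the 12-week balance, with 79 genes higher and 73 lower. The 24-week balance turned in other settings, to 61 higher and 107 lower in members thinned to 1000 UMIs, 84 and 132 without Cd3, Trac or Trbc UMIs, and 86 and 152 against chow hashtags 5 to 8. The balance at both weeks turned to 11 higher and 18 lower with a marker sum of at least 3, and to 8 and 13 with Gzmc left out of the sum. Thinning also turned the 12-week balance, to 56 higher and 41 lower, as did a minimum of 100 CPM, to 30 and 16. The median log2 ratio over all genes compared was -0.08 at 12 weeks and -0.05 at 24 weeks.

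Gzma, which encodes the trypsin-like protease granzyme A of cytotoxic granules (chromosome 13, 113093825 to 113100981, minus strand), was lower in MASH at both weeks. It stood at 962 CPM in MASH and 4199 CPM in chow at 12 weeks, and 248 CPM in MASH and 2629.7 CPM in chow at 24 weeks. The MASH-to-chow ratio was 0.229 (0.208 to 0.253) in week 12 and 0.0944 (0.0862 to 0.103) in week 24. The call held under all 19 other settings tried, some of which, named with the processing below, could not undo it. The share of ILC1 cells with a Gzma UMI was 26.99% in MASH and 48.6% in chow at 12 weeks, and 10.8% in MASH and 52.4% in chow at 24 weeks. Among members thinned to 1000 UMIs it was 16.7% in MASH and 41.9% in chow at 12 weeks, and 7.53% in MASH and 45.1% in chow at 24 weeks, the same order as before thinning. B cells, which should lack Gzma, showed a UMI in 6.98% of cells in MASH and 5.46% in chow at 12 weeks, and 1.80% in MASH and 5.91% in chow at 24 weeks, at median depths of 2571, 1706, 2669 and 1986 UMIs in that order. The cell with the most Gzma held 14.8% of the UMIs in 12-week MASH, 25.5% in 12-week chow, 19.9% in 24-week MASH and 6.63% in 24-week chow. Over hashtags with at least 10 members the level spanned 1125 to 1431 CPM in MASH and 297 to 6305 CPM in chow at 12 weeks, which overlap, and 109 to 761 CPM in MASH and 1435 to 3831 CPM in chow at 24 weeks, which do not. In 24-week chow only 5 of the 8 hashtags had that many. Hashtags 5, 6 and 7, with 4, 7 and 4 members, were left out here and in all hashtag levels below.

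Other lymphocytes of the same libraries gave other ratios. In NK cells Gzma stood at 8937 CPM in MASH and 11817 CPM in chow at 12 weeks, and 7327 CPM in MASH and 11370.5 CPM in chow at 24 weeks, with ratios of 0.756 (0.738 to 0.775) in week 12 and 0.644 (0.625 to 0.665) in week 24. In Cxcr6-positive T cells it stood at 285 CPM in MASH and 136 CPM in chow at 12 weeks, and 325 CPM in MASH and 170.3 CPM in chow at 24 weeks. Gzma was thus lower in MASH in ILC1 and NK cells and higher in MASH in the T cells at both weeks, and the difference between the classes was not tested.

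Gzmb, granzyme B, which cleaves caspase substrates in target cells (chromosome 14, 56258838 to 56262260, minus strand), stood at 773 CPM in MASH and 1034 CPM in chow at 12 weeks, and 369 CPM in MASH and 897 CPM in chow at 24 weeks. Its ratio was 0.747 (0.641 to 0.873) in week 12 and 0.411 (0.369 to 0.458) in week 24, so it met the limit only at 24 weeks. Gzmc, granzyme C (chromosome 14, 56231441 to 56234656, minus strand), had ratios above 1, with a 12-week interval that included 1. It is a gene of the rule and stood at 268 CPM in MASH and 205 CPM in chow at 12 weeks, and 940.3 CPM in MASH and 499.96 CPM in chow at 24 weeks, with ratios of 1.31 (0.947 to 1.83) in week 12 and 1.88 (1.66 to 2.13) in week 24, short of 2-fold at both weeks. Reads of Gzmc and its close copies Gzmd to Gzmg may be split by the counting.

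The 250 bases before the RefSeq start of each of these 3 granzyme genes are shown. Gzma met the limit at both weeks, Gzmb only at 24 weeks and Gzmc, a rule gene, at neither. They are read 5′ to 3′ on the minus strand of GRCm38.p6, from chr13:113100982-113101231 for Gzma, chr14:56262335-56262584 for Gzmb and chr14:56234658-56234907 for Gzmc. Capitals mark matches on either strand to GTGTGA, the core letters of T-box factors such as T-bet and Eomes (TCACAC on the other strand), or TGTGGT, those of Runx factors (ACCACA on the other strand).
Gzma: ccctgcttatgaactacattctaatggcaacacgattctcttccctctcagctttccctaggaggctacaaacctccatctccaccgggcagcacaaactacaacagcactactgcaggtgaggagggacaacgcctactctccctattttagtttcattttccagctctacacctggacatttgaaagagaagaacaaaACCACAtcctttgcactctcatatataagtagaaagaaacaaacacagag
Gzmb: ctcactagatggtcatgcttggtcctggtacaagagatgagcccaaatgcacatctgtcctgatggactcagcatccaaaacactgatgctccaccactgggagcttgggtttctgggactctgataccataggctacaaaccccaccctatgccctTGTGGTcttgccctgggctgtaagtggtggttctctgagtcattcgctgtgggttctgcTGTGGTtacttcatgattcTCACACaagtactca
Gzmc: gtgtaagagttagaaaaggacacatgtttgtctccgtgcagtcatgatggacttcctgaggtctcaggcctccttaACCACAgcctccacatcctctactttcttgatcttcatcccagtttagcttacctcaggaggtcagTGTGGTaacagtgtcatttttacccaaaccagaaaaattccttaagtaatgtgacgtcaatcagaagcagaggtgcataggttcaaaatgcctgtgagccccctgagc
The Gzma window held 1 Runx match and no T-box match, the Gzmb window 2 Runx matches and 1 T-box match, and the Gzmc window 2 Runx matches and no T-box match. None overlapped another. Of 32851 RefSeq promoter windows of this length, 12.3% held the T-box letters and 14.0% the Runx letters. The STAT letters TTCNNNGAA, found in 7.02% of the windows, were in none of the 3.

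No other compared member of the cytotoxic list met the limit. Of its 21 genes 14 were compared at each week; 0 were higher and 1 lower at 12 weeks (Gzma), with a median log2 ratio of -0.41, and 0 were higher and 2 lower at 24 weeks (Gzma and Gzmb), with a median of -0.05. Prf1 stood at 97.3 CPM in MASH and 153 CPM in chow at 12 weeks, and 68.7 CPM in MASH and 126 CPM in chow at 24 weeks, with ratios of 0.637 (0.420 to 0.982) in week 12 and 0.544 (0.412 to 0.724) in week 24. Fasl, the Fas ligand, stood at 59.98 CPM in MASH and 87.3 CPM in chow at 12 weeks, and 60.1 CPM in MASH and 103 CPM in chow at 24 weeks, and Nkg7, a granule membrane protein, at 2101 CPM in MASH and 2942 CPM in chow at 12 weeks, and 1935 CPM in MASH and 2224 CPM in chow at 24 weeks. Tnfsf10, or TRAIL, is a rule gene and was nearly level, at 252 CPM in MASH and 244 CPM in chow at 12 weeks and 195 CPM in MASH and 190.4 CPM in chow at 24 weeks. Perforin and Fas ligand lay below chow in both MASH libraries without meeting the limit.

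**Figure D3:**
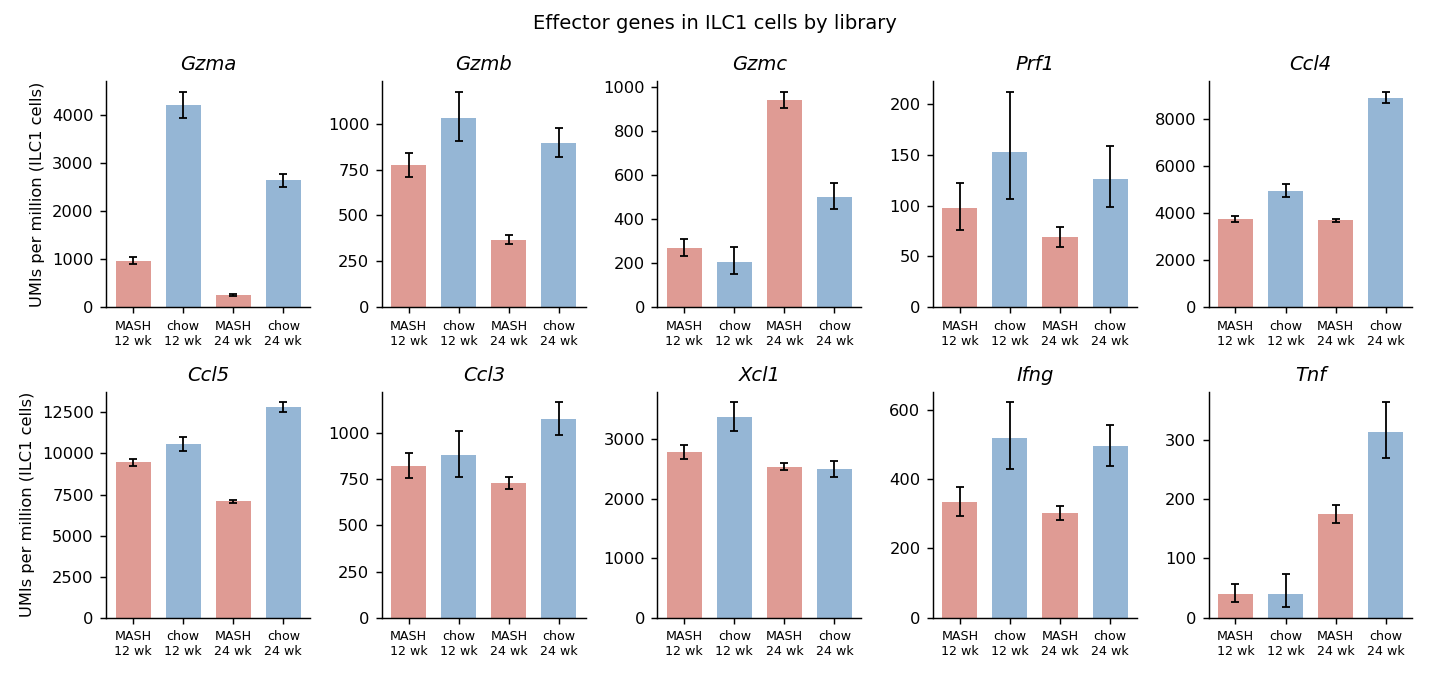
CPM of granzymes, perforin, chemokines and cytokines in ILC1 cells of each library, as bars with exact 95% Poisson intervals, MASH left of chow at each week. Gzma is at 248 CPM in 24-week MASH and 2629.7 CPM in 24-week chow, whereas Xcl1 is at 2531 and 2493 CPM in the same libraries.

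Among secreted signals, 7 of 20 genes were compared at 12 weeks and none met the limit, with a median log2 ratio of -0.25. At 24 weeks 8 were compared, 0 were higher and 1 lower, with a median of -0.64. The lower gene was Ccl4, a chemokine that attracts T cells and monocytes (chromosome 11, 83662584 to 83664683), at 3756 CPM in MASH and 4967 CPM in chow at 12 weeks, and 3701 CPM in MASH and 8925 CPM in chow at 24 weeks. Its ratio was 0.756 (0.706 to 0.811) in week 12 and 0.415 (0.401 to 0.429) in week 24, and hashtags lay apart at both weeks, at 3312 to 4246 CPM in MASH and 4862 to 7838 CPM in chow at 12 weeks and at 2776 to 5080.1 CPM in MASH and 7726 to 15384 CPM in chow at 24 weeks. Ccl5, another chemokine of the CC family, stood at 9454 CPM in MASH and 10575 CPM in chow at 12 weeks, and 7079 CPM in MASH and 12805 CPM in chow at 24 weeks, with a 24-week ratio of 0.553 (0.538 to 0.568). Ccl3 had a 24-week ratio of 0.677 (0.618 to 0.743).

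Ifng, the signature cytokine of ILC1, stood at 333.2 CPM in MASH and 519 CPM in chow at 12 weeks, and 302 CPM in MASH and 495 CPM in chow at 24 weeks, with ratios of 0.642 (0.514 to 0.805) in week 12 and 0.610 (0.532 to 0.701) in week 24. Tnf stood at 175 CPM in MASH and 313 CPM in chow at 24 weeks, a ratio of 0.558 (0.469 to 0.666), and was too low to compare at 12 weeks. Both lay lower in MASH at 24 weeks with intervals below 1, yet short of 2-fold. Xcl1 differed little, with ratios of 0.825 (0.759 to 0.897) in week 12 and 1.02 (0.959 to 1.08) in week 24, as did Ltb, the lymphotoxin subunit, with 1.05 (0.880 to 1.27) in week 12 and 0.864 (0.783 to 0.956) in week 24. Il22 and Il17a of other innate lymphocytes had 0 to 0.356 CPM and 0 CPM.

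Cytokine receptors and their signalling genes were mostly level. Of 30 genes 23 were compared at each week, with 0 higher and 1 lower at 12 weeks and 1 higher and 1 lower at 24 weeks, and the medians were 0.06 and 0.03 in log2. Il2rb, the shared receptor chain for interleukin-2 and interleukin-15, stood at 1441 CPM in MASH and 1397 CPM in chow at 12 weeks, and 1346 CPM in MASH and 1322 CPM in chow at 24 weeks. Il7r was above chow in both MASH libraries, at 323 CPM in MASH and 201 CPM in chow at 12 weeks, and 242 CPM in MASH and 183 CPM in chow at 24 weeks, with ratios of 1.61 (1.17 to 2.25) in week 12 and 1.32 (1.07 to 1.64) in week 24. Il12rb1, a chain of the interleukin-12 receptor, was the lower gene at 12 weeks, at 34.7 CPM in MASH and 69.8 CPM in chow, a ratio of 0.496 (0.256 to 0.990). The inhibitors of cytokine signalling went opposite ways at 24 weeks. Socs2 stood at 37.7 CPM in MASH and 87.2 CPM in chow, a ratio of 0.433 (0.306 to 0.620), and Socs3, which damps STAT3 signalling, at 93.9 CPM in MASH and 32.03 CPM in chow, a ratio of 2.93 (1.82 to 5.03). Socs3 met the limit in 14 of 19 other settings, and all other kept cells held it at 142 CPM in MASH and 61.9 CPM in chow.

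Tigit, an inhibitory receptor for the nectin CD155 (chromosome 16, 43648867 to 43664146, minus strand), was the 1 gene of the activating and inhibitory receptor list past the limit at 24 weeks. Its level was 113 CPM in MASH and 69.8 CPM in chow at 12 weeks, and 124 CPM in MASH and 30.2 CPM in chow at 24 weeks, with ratios of 1.62 (0.944 to 2.97) in week 12 and 4.09 (2.52 to 7.11) in week 24. A Tigit UMI was seen in 40.7% of ILC1 cells in MASH and 8.43% in chow at 24 weeks, and in 14.9% in MASH and 4.27% in chow after thinning to 1000 UMIs. B cells showed a Tigit UMI in 1.04% of cells in MASH and 0.516% in chow at 12 weeks, and 0.841% in MASH and 0.442% in chow at 24 weeks. Hashtags lay apart at 24 weeks, at 112 to 217 CPM in MASH and 0 to 106 CPM in chow, and overlapped at 12 weeks. In NK cells Tigit stood at 88.3 CPM in MASH and 73.5 CPM in chow at 12 weeks, and 54.3 CPM in MASH and 37.1 CPM in chow at 24 weeks.

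Other receptors of that list stayed closer to chow. Of 31 genes, 22 were compared at 12 weeks with 1 higher and 0 lower (median log2 ratio -0.06), and 23 at 24 weeks with 1 higher and 0 lower (median -0.02). The 12-week gene was Cd200r1, the inhibitory receptor for CD200, at 120.0 CPM in MASH and 56.7 CPM in chow at 12 weeks, and 125 CPM in MASH and 81.8 CPM in chow at 24 weeks, with ratios of 2.11 (1.18 to 4.12) in week 12 and 1.53 (1.12 to 2.13) in week 24; it met the limit at 12 weeks in only 10 of 19 other settings. Lag3 and Cd96, further inhibitory receptors, had 24-week ratios of 0.989 (0.736 to 1.35) and 1.196 (0.878 to 1.66). Klrk1, the NKG2D activating receptor, had 0.974 (0.863 to 1.101), and Klrc1, the inhibitory NKG2A chain, 0.678 (0.588 to 0.784).

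Klra9, a Ly49 receptor for MHC class I, was lower at both weeks, at 26.7 CPM in MASH and 131 CPM in chow at 12 weeks, and 26.3 CPM in MASH and 74.7 CPM in chow at 24 weeks. Its ratio was 0.204 (0.110 to 0.371) in week 12 and 0.352 (0.238 to 0.527) in week 24, and in NK cells it was 0.679 (0.590 to 0.782) in week 12 and 0.440 (0.368 to 0.525) in week 24. At 24 weeks it met the limit in 12 of 18 other settings and its hashtag levels overlapped. The rule excluded Klra8 and Klra4, near-identical neighbours of Klra9, so reads split among them could touch this value. Kit, the stem cell factor receptor (chromosome 5, 75574916 to 75656722), stood at 70.6 CPM in MASH and 26.2 CPM in chow at 12 weeks, and 151 CPM in MASH and 49.8 CPM in chow at 24 weeks. It met the limit at 24 weeks with a ratio of 3.04 (2.07 to 4.62), and at 12 weeks, where it was below the level compared, the ratio was 2.698 (1.16 to 7.68). Kit UMIs were in 23.3% of ILC1 cells in MASH and 6.76% in chow at 12 weeks, and in 42.8% in MASH and 12.05% in chow at 24 weeks. After thinning the 24-week shares were 13.2% in MASH and 6.098% in chow. B cells showed a Kit UMI in 1.34% of cells in MASH and 1.11% in chow at 12 weeks, and 1.51% in MASH and 0.816% in chow at 24 weeks. Hashtag levels lay apart at both weeks, with 143 to 221 CPM in MASH and 0 to 64.2 CPM in chow at 24 weeks. Of the 14 genes that mark group 2 and group 3 innate lymphocytes, 2 were compared at 12 weeks and 3 at 24 weeks, and Kit was the single one to meet the limit.

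Of 24 genes of homing and residency, 16 were compared at each week, with 3 higher and 0 lower at 12 weeks and none past the limit at 24 weeks; the medians were -0.10 and -0.20. Ccr2, the CCL2 receptor, stood at 189 CPM in MASH and 69.8 CPM in chow at 12 weeks, and 126 CPM in MASH and 74.7 CPM in chow at 24 weeks, with ratios of 2.71 (1.61 to 4.87) in week 12 and 1.69 (1.22 to 2.38) in week 24. Itga4, the alpha-4 integrin chain, stood at 197 CPM in MASH and 87.3 CPM in chow at 12 weeks, and 136 CPM in MASH and 121 CPM in chow at 24 weeks, with ratios of 2.26 (1.41 to 3.81) in week 12 and 1.12 (0.864 to 1.47) in week 24. Gpr183, an oxysterol receptor that guides lymphocyte migration, had a 12-week ratio of 2.63 (1.26 to 6.34) and met the limit in 13 of 18 other settings. The hashtag levels of Ccr2 and Itga4 lay apart at 12 weeks, with 3 hashtags in each library. So did those of genes that met no limit at that week, such as Xcl1, Il7r, Cxcr3, Cxcr6 and Tbx21. Lying apart was thus not particular to called genes. How often hashtag levels lie apart over all genes was not counted at either week. Whether the 12-week and 24-week ratios of these genes differ was not tested.

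Residency genes themselves were close to chow or below it. Cxcr6, a rule gene, stood at 243 CPM in MASH and 384 CPM in chow at 12 weeks, and 408 CPM in MASH and 482 CPM in chow at 24 weeks. Cxcr3 stood at 116 CPM in MASH and 227 CPM in chow at 12 weeks, and 136 CPM in MASH and 151 CPM in chow at 24 weeks, with ratios of 0.511 (0.358 to 0.735) in week 12 and 0.899 (0.709 to 1.15) in week 24. Itga1 had ratios of 0.986 (0.698 to 1.42) in week 12 and 0.710 (0.578 to 0.877) in week 24 and Cd69, which holds lymphocytes in tissue, of 0.659 (0.519 to 0.841) in week 12 and 0.951 (0.797 to 1.14) in week 24. Of the 21 ILC1 markers compared at each week, 0 were higher and 1 lower at 12 weeks, and none passed the limit at 24 weeks. The lower one was Ckb, brain-type creatine kinase, at 74.6 CPM in MASH and 236 CPM in chow at 12 weeks, and 137 CPM in MASH and 190.4 CPM in chow at 24 weeks, a 12-week ratio of 0.317 (0.214 to 0.469). Medians of that list were -0.28 and -0.07. Of 5 NK markers compared, 0 were higher and 1 (Klra9) lower at each week, with medians of -0.72 and -0.41.

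Transcription factors gave 1 call. Of 29 genes, 21 were compared at 12 weeks with 1 higher (median -0.02) and 18 at 24 weeks with none past the limit (median -0.17). The gene was Nr4a2, an orphan nuclear receptor induced early after stimulation, at 419 CPM in MASH and 122 CPM in chow at 12 weeks, and 115 CPM in MASH and 83.6 CPM in chow at 24 weeks, with ratios of 3.42 (2.32 to 5.24) in week 12 and 1.37 (1.01 to 1.902) in week 24. It was seen in 65.6% of ILC1 cells in MASH and 28.4% in chow at 12 weeks. The 12-week limit was met in all 19 other settings, of which those on 24-week chow hashtags could not change a 12-week value. The 12-week ratio of Nr4a2 was 4.30 (3.79 to 4.88) in the Cxcr6-positive T cells and 1.23 (1.08 to 1.39) in NK cells. All other kept cells held it at 146 CPM in MASH and 68.8 CPM in chow at 12 weeks. Nr4a2 was thus higher in 12-week MASH outside ILC1 cells too, and the difference between the classes was not tested. Tbx21, the gene of T-bet, stood at 91.97 CPM in MASH and 179 CPM in chow at 12 weeks, and 125 CPM in MASH and 142 CPM in chow at 24 weeks, with ratios of 0.514 (0.344 to 0.776) in week 12 and 0.875 (0.684 to 1.13) in week 24. Zfp683, the residency factor Hobit, stood at 45.3 CPM in MASH and 74.2 CPM in chow at 12 weeks, and 68.7 CPM in MASH and 85.4 CPM in chow at 24 weeks, and Id2, required by all innate lymphocytes, at 1289 CPM in MASH and 1288 CPM in chow at 12 weeks, and 1397 CPM in MASH and 1525 CPM in chow at 24 weeks. Id2 was level in all 4 libraries, and Tbx21 was lowest in 12-week MASH.

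Immediate early genes, which respond within minutes to stimulation and also to tissue handling, differed gene by gene. Of 20 early and heat shock genes, 19 were compared at 12 weeks with 2 higher and 0 lower (median 0.28), and 20 at 24 weeks with 1 higher and 2 lower (median -0.09). Egr1 was higher at both weeks, at 299 CPM in MASH and 144 CPM in chow at 12 weeks, and 297 CPM in MASH and 142 CPM in chow at 24 weeks, with ratios of 2.07 (1.43 to 3.09) in week 12 and 2.09 (1.66 to 2.66) in week 24. An Egr1 UMI was in 28.8% of cells in MASH and 28.4% in chow at 12 weeks, a like share, and in 41.3% in MASH and 24.1% in chow at 24 weeks. The 12-week limit was met in 14 of 19 other settings, with a lowest ratio of 1.17, and hashtag levels overlapped at both weeks. Atf3 was higher at 12 weeks, at 219.9 CPM in MASH and 65.5 CPM in chow, and level at 24 weeks, at 215 CPM in MASH and 231 CPM in chow. Fos, a subunit of the AP-1 factor, had ratios of 0.949 (0.833 to 1.08) in week 12 and 1.19 (1.11 to 1.26) in week 24. The heat shock genes Hspa1b and Hsph1 were lower at 24 weeks, with ratios of 0.451 (0.418 to 0.488) and 0.451 (0.375 to 0.544); at 12 weeks their ratios were 1.59 (0.906 to 2.97) and 1.88 (1.28 to 2.85). Hspa1b shares most of its sequence with Hspa1a, so their reads may be split. In both diets Hspa1b was higher at 24 weeks than at 12 weeks, at 104 CPM in MASH and 65.5 CPM in chow at 12 weeks, and 746 CPM in MASH and 1653 CPM in chow at 24 weeks.

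Interferon-response genes met the limit only at 24 weeks. Of 20 genes, 13 were compared at 12 weeks and none met the limit (median -0.05); 16 were compared at 24 weeks with 1 higher and 1 lower (median -0.14). Ifi27l2a was higher, at 176 CPM in MASH and 48.04 CPM in chow, a ratio of 3.66 (2.48 to 5.61). Igtp, an interferon-inducible GTPase, was lower, at 34.9 CPM in MASH and 76.5 CPM in chow, a ratio of 0.456 (0.315 to 0.668). Ifi27l2a was 23.2% as high in ILC1 cells as in all other kept cells of the 24-week MASH library. Of 22 metabolic genes, 9 were compared at 12 weeks and 11 at 24 weeks, none met the limit, and the medians were -0.17 and 0.20.

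Cycling transcripts came from very few ILC1 cells. Of 20 cell cycle genes, 11 were compared at 12 weeks with 0 higher and 3 lower (median -0.75), and 6 at 24 weeks with none past the limit (median -0.21). The lower ones were Stmn1, Pclaf and Birc5. Pclaf, a PCNA-binding protein of DNA replication, stood at 50.7 CPM in MASH and 144 CPM in chow at 12 weeks, and a single cell held 97.4% of its UMIs in MASH and 96.97% in chow. Mki67, the proliferation marker, stood at 59.98 CPM in MASH and 100.4 CPM in chow at 12 weeks, and 25.3 CPM in MASH and 10.7 CPM in chow at 24 weeks. For Stmn1 and Birc5 the highest cell held 68.9% and 72.7% in MASH and 63.4% and 50% in chow. Without the highest cell of each library, Stmn1 stood at 26.3 CPM in MASH and 70.97 CPM in chow, and Birc5 at 8.302 CPM in MASH and 49.8 CPM in chow. For Pclaf those levels were 1.38 CPM in MASH and 4.73 CPM in chow, too few UMIs to compare.

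Besides Gzma, Klra9 and Egr1, a few genes were called the same way at both weeks. Anxa1, annexin A1, a phospholipid-binding protein that limits inflammation, stood at 105 CPM in MASH and 39.3 CPM in chow at 12 weeks, and 132 CPM in MASH and 58.7 CPM in chow at 24 weeks. Its ratios were 2.68 (1.34 to 6.08) in week 12 and 2.25 (1.58 to 3.32) in week 24, and hashtags lay apart at both weeks, by the narrowest of margins at 12 weeks, with 74.3 to 110.2 CPM in MASH and 9.69 to 74.3 CPM in chow at 12 weeks and 100.3 to 143 CPM in MASH and 0 to 70.7 CPM in chow at 24 weeks. All other kept cells also held more Anxa1 in MASH, at 116 against 67.3 CPM in week 12 and 201 against 87.1 CPM in week 24. Ratios in the Cxcr6-positive T cells were 1.73 (1.48 to 2.02) in week 12 and 1.52 (1.37 to 1.68) in week 24. In NK cells they were 0.690 (0.547 to 0.872) in week 12 and 1.47 (1.18 to 1.83) in week 24. Wls, the carrier that takes Wnt proteins to the cell surface, stood at 105 CPM in MASH and 48.01 CPM in chow at 12 weeks, and 72.6 CPM in MASH and 35.6 CPM in chow at 24 weeks, with ratios of 2.19 (1.16 to 4.57) in week 12 and 2.04 (1.29 to 3.41) in week 24. The hashtag levels of Wls overlapped, and it met the limit in 13 of 18 other settings at 12 weeks and in 10 of 19 at 24 weeks.

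Mmp9, gelatinase B, a matrix-degrading enzyme, was lower at both weeks. It stood at 14.7 CPM in MASH and 105 CPM in chow at 12 weeks, and 24.5 CPM in MASH and 179.7 CPM in chow at 24 weeks, with ratios of 0.140 (0.0619 to 0.297) in week 12 and 0.137 (0.0991 to 0.187) in week 24. An Mmp9 UMI was in 4.91% of ILC1 cells in MASH and 21.6% in chow at 12 weeks, and in 3.93% in MASH and 34.3% in chow at 24 weeks. B cells showed an Mmp9 UMI in 0.681% of cells in MASH and 0.959% in chow at 12 weeks, and 2.78% in MASH and 3.46% in chow at 24 weeks. In the Cxcr6-positive T cells Mmp9 stood at 76.97 CPM in MASH and 173 CPM in chow at 12 weeks, and 43.8 CPM in MASH and 181 CPM in chow at 24 weeks, with ratios of 0.444 (0.396 to 0.497) in week 12 and 0.242 (0.218 to 0.269) in week 24, so it was lower in MASH there too. In NK cells Mmp9 stood at 0.574 CPM in MASH and 3.104 CPM in chow at 12 weeks, and 41.7 CPM in MASH and 25.9 CPM in chow at 24 weeks, and in B cells at 5.48 CPM in MASH and 6.01 CPM in chow at 12 weeks, and 39.999 CPM in MASH and 39.7 CPM in chow at 24 weeks. Myo6, a motor protein that moves toward the minus ends of actin filaments, stood at 45.3 CPM in MASH and 118 CPM in chow at 12 weeks, and 31.7 CPM in MASH and 74.7 CPM in chow at 24 weeks, with ratios of 0.385 (0.225 to 0.663) in week 12 and 0.424 (0.290 to 0.627) in week 24. Khsrp, an RNA-binding protein, Cdk6, a cell cycle kinase, and Ier3, an early stress gene, were higher at 12 weeks, with ratios of 5.19 (1.94 to 19.6), 5.12 (1.91 to 19.3) and 6.82 (2.24 to 33.9). They stood at 90.6 CPM in MASH and 17.5 CPM in chow for Khsrp, 89.3 CPM in MASH and 17.5 CPM in chow for Cdk6 and 89.3 CPM in MASH and 13.1 CPM in chow for Ier3. Ier3 had 67 UMIs in MASH, in 8.59% of cells, and 3 UMIs in chow, and met the limit in 10 of 16 other settings, against 13 of 17 for Cdk6 and 16 of 17 for Khsrp. At 24 weeks Khsrp had a ratio of 1.06 (0.711 to 1.64) and Cdk6 of 1.29 (0.808 to 2.14).

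**Figure D4:**
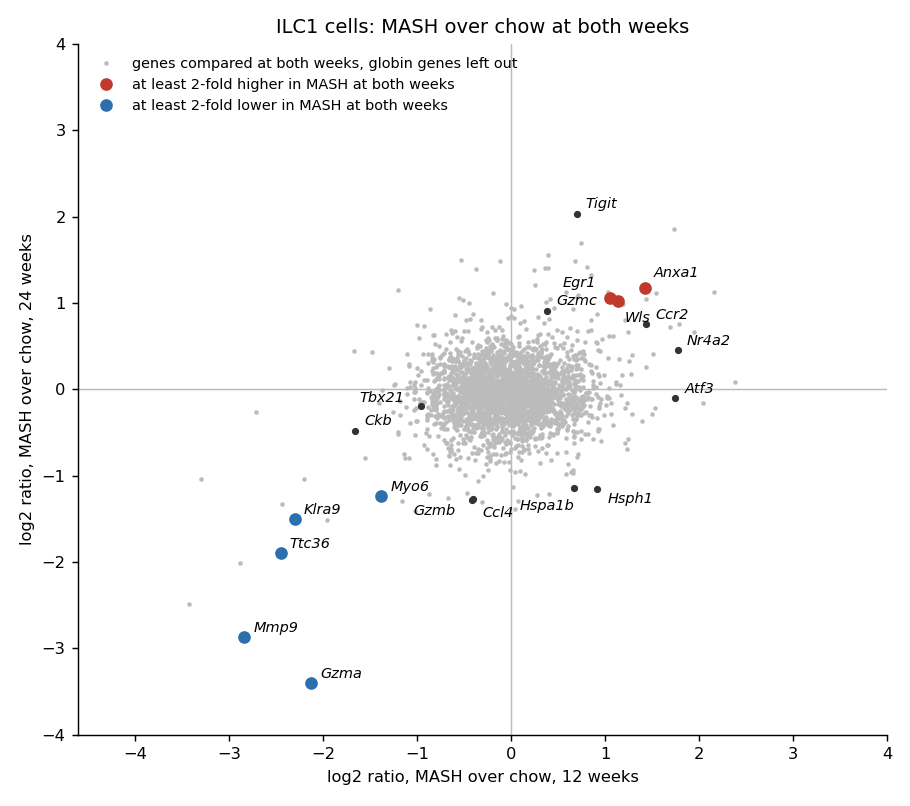
Log2 ratio of ILC1 CPM in MASH over chow at 24 weeks (y axis) against 12 weeks (x axis), for the 2831 genes compared at both weeks with UMIs in every library, without globin genes. Large points mark the 3 genes higher and 5 lower at both weeks whose ILC1 level was at least 50% of that in all other cells, with Mmp9, Gzma and Klra9 at the lower left and Anxa1, Egr1 and Wls at the upper right.

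**Figure D5:**
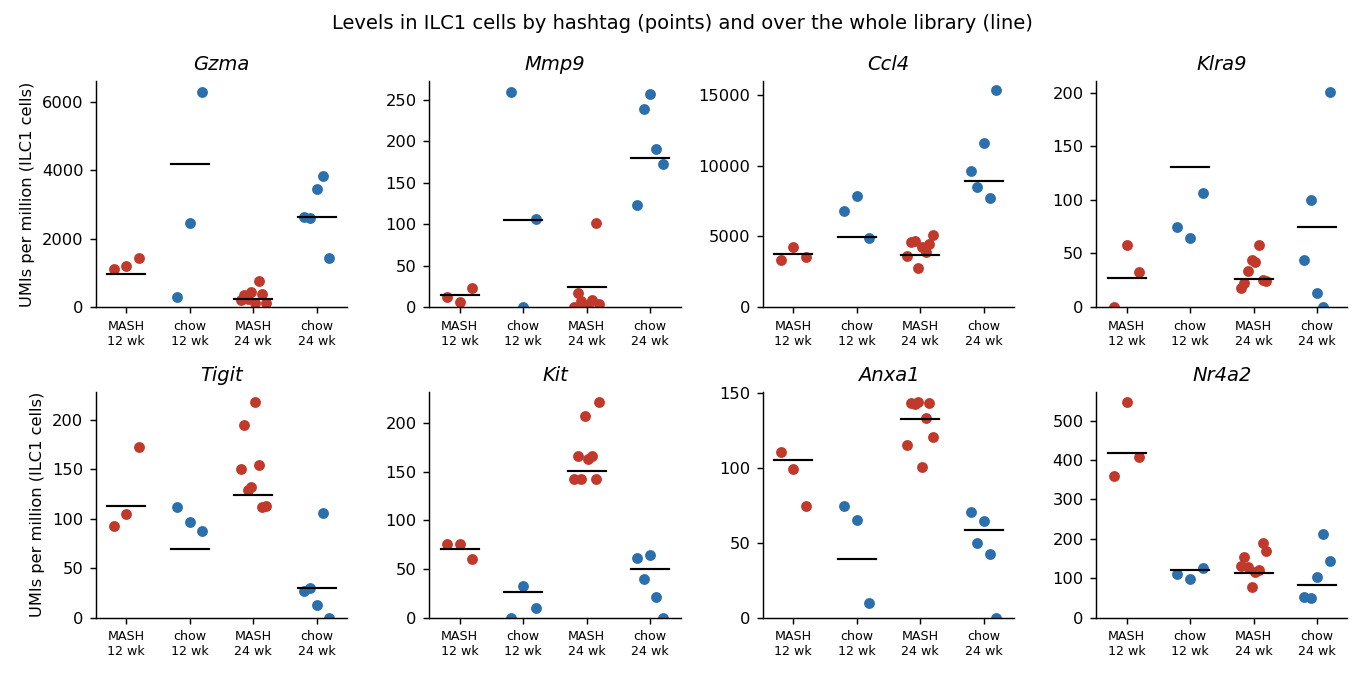
CPM of 8 genes in ILC1 cells of each hashtag with at least 10 members (points) and of the whole library (line), MASH left of chow at each week. In 24-week chow only 5 of the 8 hashtags had that many members. Hashtag levels of Gzma overlap at 12 weeks and lie apart at 24 weeks, and those of Ccl4, Kit and Anxa1 lie apart at both weeks.

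Several of the widest ratios were in transcripts known from other cells and held by few ILC1 barcodes. Globin transcripts (Hba-a1, Hba-a2, Hbb-bs and Hbb-bt, near-identical pairs) were called higher at both weeks. Of the 6 genes of the erythroid list, 5 were compared at 12 weeks with 4 higher and 1 lower. At 24 weeks 4 were compared, with 4 higher and 0 lower. That list summed to 4109 CPM in MASH and 1872 CPM in chow at 12 weeks, and 4448 CPM in MASH and 8.896 CPM in chow at 24 weeks. In 12-week chow a single barcode held 97.3% of the Hbb-bs UMIs, and Hbb-bs was also in NK cells at 5469.7 CPM in MASH and 730.4 CPM in chow at 12 weeks, and 3084 CPM in MASH and 0 CPM in chow at 24 weeks. Spp1, osteopontin, stood at 1053 CPM in MASH and 3.56 CPM in chow at 24 weeks and at 303 CPM in MASH and 0 in chow at 12 weeks, where 1 barcode held 93.4% of the MASH UMIs. In all other kept cells Spp1 was at 2091 CPM in MASH and 86.2 CPM in chow at 24 weeks. Krt18, an epithelial keratin, was higher at 24 weeks with UMIs in 3.74% of the MASH members, and it met the limit in 11 of 17 other settings. Camp, a neutrophil granule gene, was also higher at 24 weeks, at 98.5 CPM in MASH and 1.78 CPM in chow.

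Hepatocyte transcripts ran in part the other way. The 10 hepatocyte markers summed to 456 CPM in MASH and 659 CPM in chow at 12 weeks, and 549 CPM in MASH and 649 CPM in chow at 24 weeks, with 0 higher and 2 lower of 5 compared at 12 weeks and none past the limit of 4 compared at 24 weeks. The hepatocyte enzymes Car3, Gnmt, Uox and Fbp1, with Thrsp and Ttc36, were among the widest lower genes at 12 weeks. At 24 weeks Car3, Gnmt, Ttc36 and Uox were lower as well, with ratios of 0.178 (0.134 to 0.236), 0.248 (0.187 to 0.331), 0.269 (0.191 to 0.381) and 0.488 (0.336 to 0.720). Uox met the 24-week limit in 6 of 19 other settings, and Gnmt, Ttc36 and Uox were each above 1 in at least 1 of them. A single barcode held 57.6% of Gnmt UMIs in MASH and 60.8% in chow. Siglech, a plasmacytoid dendritic cell receptor, had a 12-week ratio of 0.0218 (0.00252 to 0.0865) with UMIs in 5.41% of the chow members. Serpina1e, a hepatocyte protease inhibitor, and Pf4, a platelet chemokine, were lower at 24 weeks, with 26.7% and 59.6% of their chow UMIs in 1 barcode. Gm10260, an uncharacterised locus, had UMIs in 1.31% of MASH and 63.3% of chow members at 24 weeks and in none at 12 weeks, and in B cells it stood at 1.18 CPM in MASH and 489.8 CPM in chow at 24 weeks.

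Marker lists of the remaining cell types were summed the same way. Macrophage markers came to 756 CPM in MASH and 4.36 CPM in chow at 12 weeks, and 889.8 CPM in MASH and 664 CPM in chow at 24 weeks, and Lyz2, the 1 gene of that list compared, was higher at 12 weeks. Neutrophil markers came to 15.99 CPM in MASH and 4.36 CPM in chow at 12 weeks, and 1888 CPM in MASH and 1144 CPM in chow at 24 weeks; none of the 8 was compared at 12 weeks and 4 at 24 weeks, where Camp was higher. Endothelial markers came to 265 CPM in MASH and 262 CPM in chow at 12 weeks, and 179 CPM in MASH and 149 CPM in chow at 24 weeks, with 1 compared at each week and none past the limit. Of the 8 B cell markers 2 were compared at each week, and Cd74, the MHC class II invariant chain, was higher at 12 weeks at 1334 CPM in MASH and 576 CPM in chow. The single gamma-delta marker compared, Tcrg-C4, had ratios of 1.01 (0.731 to 1.405) in week 12 and 0.968 (0.795 to 1.19) in week 24. Clec4f, a Kupffer cell marker, was at 0 CPM in the ILC1 cells of all 4 libraries and Csf1r, of macrophages, stood at 0 to 42.7 CPM. The part of RNA from other cells in the gene ratios was not tested. In 24-week chow, where they were higher, ILC1 cells held Gzma at 479% and Mmp9 at 148% of the level in all other kept cells. In 24-week MASH, where they were higher, ILC1 cells held Tigit at 499% and Kit at 722% of that level.

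Within the ILC1 cells Gzmc divided the members. A Gzmc UMI was present in 44 of 163 cells in 12-week MASH, 18 of 74 in 12-week chow, 188 of 535 in 24-week MASH and 40 of 166 in 24-week chow. Gzmb was higher in cells with Gzmc than in those without in every library, at 982 against 689 CPM in 12-week MASH, 1528 against 820.1 CPM in 12-week chow, 662 against 197 CPM in 24-week MASH, and 1684 against 653 CPM in 24-week chow. Xcl1 was also higher with Gzmc in all 4 libraries, for example at 3007 against 2253 CPM in 24-week MASH. Cd200r2 was lower with Gzmc in all 4, and a cell with a Gzmc UMI needed fewer UMIs of the other rule genes to enter. Il7r UMIs were in 40.9% of cells with Gzmc and 57.1% without in 12-week MASH, 16.7% and 42.9% in 12-week chow, 42.6% and 56.8% in 24-week MASH, and 45% and 39.7% in 24-week chow. After thinning to 1000 UMIs these Il7r shares were 24% and 31.4%, 18.2% and 17.5%, 16.7% and 20.7%, and 24.1% and 11.1% in the same order. Il7r thus had no fixed order between the subsets.

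Plaur, the urokinase receptor whose expression the series was made to measure, was scarce in ILC1 cells, at 27.99 CPM in MASH and 13.1 CPM in chow at 12 weeks, and 16.7 CPM in MASH and 14.2 CPM in chow at 24 weeks. UMIs were in 6.13% of cells in MASH and 2.703% in chow at 12 weeks, and in 5.23% in MASH and 3.61% in chow at 24 weeks, too few to compare. B cells showed a Plaur UMI in 37.2% of cells in MASH and 33.6% in chow at 12 weeks, and 20.6% in MASH and 18.5% in chow at 24 weeks, above the ILC1 share in every library. Of the 10 genes of the urokinase receptor list 2 were compared at each week and none met the limit.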

How the data were processed

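Single-cell 5′ RNA-seq and hashtag antibodies were measured in 4 libraries, 1 for each diet and week. The authors deposited raw UMI counts per gene and barcode, made with Cell Ranger 5.0.1 for 3 libraries and version 4 for 12-week MASH, per the file headers. Builds in the submitters' processing notes are mm10 and GRCh38, with no role. The cell calling step was not given in the sources used here. The 12-week MASH matrix held all 737280 barcodes of the kit and its list of 19014 did not label the columns, so the 19091 columns with at least 500 UMIs were used. Of 32285 gene identifiers, 32158 (99.6%) were in GENCODE M21, which gave positions.

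Counts were summed over the ILC1 cells of each library and divided by their total to give CPM. Ratios of MASH to chow carry exact conditional binomial 95% intervals. The intervals were tried on simulated independent counts, which hold what they assume, so clumping of UMIs in single cells was not covered. No count model or test across libraries could be run with 1 library a group. Intervals and detection limits cover counting error only, and a count of 0 allows up to 3 counts. Thinned cells were drawn down to 1000 UMIs, leaving out shallower ones. Doublets were not removed. Scrublet (scanpy 1.11.5) marked 7.36% of ILC1 cells in MASH and 6.76% in chow at 12 weeks, and 6.54% in MASH and 18.1% in chow at 24 weeks, and removing them was an alternative.

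The members and the 22 gene lists (348 genes, 1 of them unmatched) were chosen with earlier results of these data known. All list genes could be named, along with up to 12 genes called at both weeks in each direction, up to 6 called at a single week and the 12 widest on each side of NK cells. For the genes chosen by week, the ILC1 level had to be at least 50% of that in all other cells. Alternatives changed the doublet calls, the cell filter, the rule, the scaling, the limits on level and the hashtags used. Promoters came from RefSeq on GRCm38.p6. Python 3.11.15, numpy 2.4.6, pandas 2.3.3, scipy 1.17.1 and matplotlib 3.10.9 were used. Some genes named by the rule or the lists are not reported here.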

Additional observations from a re-analysis of the deposited data

Results flagged for a closer look

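Conventional NK cells, set beside the ILC1 cells in each library, lay on opposite sides of equal shares at the 2 weeks. Their share of kept cells in MASH divided by that in chow came to 1.34 (1.17 to 1.54) in week 12 and 0.516 (0.428 to 0.619) in week 24. ILC1 cells stood above 1 at both weeks, at 2.36 and 4.41. These ratios are at full depth. After thinning every cell to 1000 UMIs, the 12-week ratio was 1.13 (0.666 to 1.93) for the ILC1 share of kept cells. For the ILC1 share of ILC1 and NK cells it was 1.09 (0.680 to 1.74). Both ratios use the same ILC1 counts, so values this close place the 12-week NK ratio after thinning nearer 1 than the full-depth 1.34. The NK ratio after thinning was not itself computed, and whether it stays above 1 was not tested. The flagged result is a split by direction in single libraries, and the difference between the weeks was not tested.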

How the results depend on the processing

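No paired analysis was possible because each group was 1 library and the groups share only replicate number 1. Over 11 settings the ILC1 share of kept cells in MASH over chow ran from 1.13 to 3.24 at 12 weeks and from 2.36 to 8.58 at 24 weeks, and the ILC1 share of ILC1 and NK cells from 1.09 to 2.17 and from 2.11 to 5.24. Thinning every cell to 1000 UMIs gave ratios of kept cells of 1.13 at 12 weeks and 2.82 at 24 weeks, and of both classes of 1.09 at 12 weeks. Without Cd3, Trac or Trbc UMIs the 12-week ratio of kept cells was 1.39 and the 24-week ratio of both classes 5.24. Against 24-week chow hashtags 1 to 4 the 24-week ratios were 2.36 and 2.11, and against hashtags 5 to 8 they were 8.58 and 4.26. With a marker sum of at least 3 they were 3.24 and 2.17 at 12 weeks, and 5.81 and 3.86 at 24 weeks.

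The genes called numbered 164 at 12 weeks, 86 at 24 weeks and 29 at both. With no minimum CPM they were 336, 637 and 60, with a minimum of 100 CPM 46, 37 and 16, and after thinning 97, 168 and 17. Without T cell receptor UMIs 216 were called at 24 weeks and 12 at both; against chow hashtags 5 to 8, 238 at 24 weeks. With a bound of 1.5-fold on the interval 67 were called at 12 weeks, and among genes at no less than 50% of other cells 12 were called at both weeks. The other 74 of 101 shares and counts stayed close to the values given, shares within the interval given and counts within 1.5-fold. They include the 12-week values under the 24-week chow hashtag settings, which could not move. Scaling by the median of ratios moved CPM ratios by 0.08 at 12 weeks and 0.05 at 24 weeks in log2.

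Among 2986 values of single genes, 11 put a called gene on the other side of 1. Ratios of genes that met no limit crossed 1 more often; Atf3 at 24 weeks kept its side in 12 of 19 settings. At 24 weeks Ttc36 came to 1.05 without Scrublet doublets and 2.30 against chow hashtags 5 to 8; Uox to 3.97 without Scrublet doublets, 3.78 without T cell receptor UMIs and 2.81 against hashtags 5 to 8; Gnmt to 3.17 against hashtags 5 to 8. With a marker sum of at least 3 the 12-week ratios were 0.0249 for Hbb-bs, 0.00978 for Hba-a1, 0.0277 for Hba-a2 and 0.0350 for Hbb-bt. Pclaf came to 9.33 at 12 weeks without Cd3 or Trac UMIs, a setting chosen after seeing the data. The cause was not tested. With 74 ILC1 cells and 229127 UMIs, 12-week chow had the fewest UMIs and limits what can be seen.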
